A study of Mus musculus with 15 samples.

Results

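The light chains of the B cell receptor were read here through 4 variable gene symbols of the 16633 on the array. Of 45037 probe sets measured on each array, 21 carry such a symbol: 18 for kappa (11 named Igk-V8, 6 named Igk-V1 and 1 named Igk-V38) and 3 for lambda (Igl-V1, now Iglv1). They were chosen by symbol alone, from the table deposited with the second screen, and each was followed on its own. RNA came from mouse splenic B cells that bind the hapten NP, in 2 screens with 15 arrays in all, and every group carries the mVh186.2 heavy chain transgene, in the memory cells of the second screen through their donors. In the first screen, naive cells of mVh186.2 transgenic mice (arrays A, B and C) were compared with memory cells of such mice (arrays D to G). For the other screen, naive AA4.1-negative cells of mVh186.2 transgenic Jk KO mice (A to D) stood against memory cells (EK, FG, HJ and I) that formed after mVh186.2 transgenic donor splenocytes were transferred into AM14/Vk8R transgenic recipients. The labels do not say whether the donors also lacked Jk, nor whether a memory array with a pair of letters is a pool of mice. They give no age and do not state the promoter of the transgene.

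A B cell makes its receptor from a heavy chain and a light chain, and the light chain is either kappa or lambda. Each light chain gene is assembled from a variable and a joining segment, at separate loci on different chromosomes, and most mouse B cells carry kappa. Without the Jk joining segments the kappa locus cannot form a complete light chain, so B cells of such mice carry lambda. VH186.2, the heavy chain segment of the transgene, binds NP when paired with a lambda chain. The AM14 and Vk8R transgenes of the recipients encode a heavy chain and a kappa chain of another specificity, so the recipients have B cells of their own with a kappa chain.

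The median intensity of an array was 103.4 to 153.7 in the first and 25.0 to 26.0 in the second screen, with precision limited by the small number of arrays. The B cell markers Ms4a1, Cd79a, Cd79b, Cd22 and Blk were bright in every group, and none was called different between memory and naive cells in either screen. In the first screen naive C and memory G stood apart from their groups. Naive C correlated with A and B at 0.910 and 0.915, against 0.987 between A and B. Memory G correlated with D, E and F at 0.908 to 0.916, against 0.972 to 0.983 among those. These are Pearson correlations of log2 values over the 16443 probe sets above the median of the screen on every one of its arrays. The labels give no batch for either array, and changes of the first screen are also given without them. Fewer cells that carry a chain and less RNA per cell cannot be told apart in such bulk samples.

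The files name each probe set but not where its probes lie in the clone it was designed from, so variable and constant parts of a light chain transcript cannot be told apart. Kappa probe sets are not independent of each other. Each of 4 pairs shares a source clone, and the sets whose name ends in _x_at, which include the 3 brightest, hold probes that may match several related transcripts. Not all were measurable: 12 of 21 (9 kappa and 3 lambda) passed the filter on dim signals in the first screen, and 8 (5 kappa and 3 lambda) in the second. That filter asks for a signal above the median of all values of the screen, an intensity of 125.1 in the first and 25.5 in the second, on as many arrays as the smaller group holds. A kappa set of the second screen could pass through its bright memory arrays alone, so the count of those that passed and changed is a description.

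In the second screen the bright kappa probe sets were dim in naive and bright in memory cells, whereas the lambda sets were bright in both. Kappa probe set 1427455_x_at (Igk-V8) read 7.93, 7.44, 10.1 and 5.0 on naive arrays A to D and 3729, 5943, 5799 and 5291 on memory arrays EK, FG, HJ and I. Set 1427660_x_at (Igk-V8) read 3.04, 3.31, 3.40 and 5.11 on the naive and 4277, 6097, 5293 and 5811 on the memory arrays. Set 1452463_x_at (Igk-V8) read 5.26, 6.64, 8.29 and 4.09 on the naive and 1502, 2813, 2758 and 2110 on the memory arrays. In all 3 the groups were far apart, with every naive array below the screen's median intensity and every memory array at percentile 93.2 of its array or higher. No overlap with memory above naive was found in 11.4% of all sets tested in that screen.

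**Figure D1:**
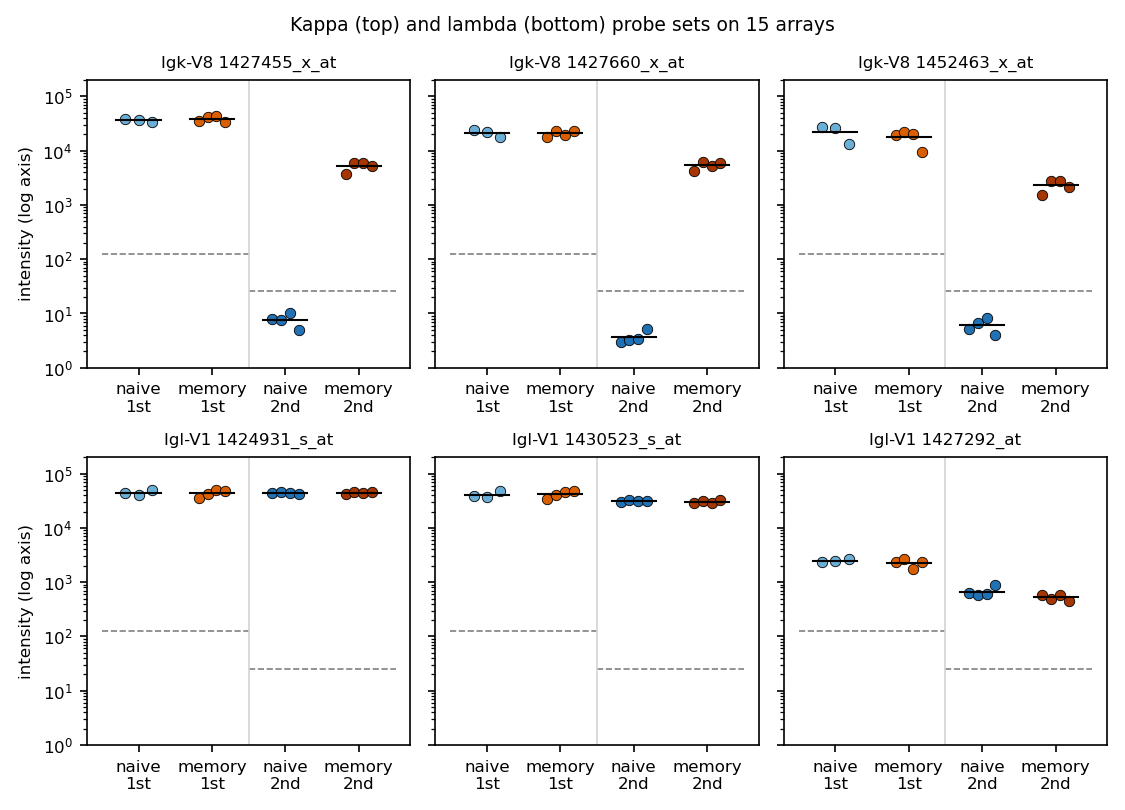
Intensity (log axis) of the 3 brightest kappa probe sets (top) and the 3 lambda probe sets (bottom) on each of 15 arrays; points are arrays, black lines group means and dashed lines the median intensity of each screen. Kappa sets read 3.04 to 10.1 on the naive arrays of the second screen and at least 1502 in all other groups, while the lambda sets stood far above the median in all 4 groups.

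By limma across all probe sets of the screen, 1427660_x_at was higher in memory cells by 10.16 ± 0.16 on the log2 scale (SE; 95% interval 9.81 to 10.51; n = 4 and 4), 1144-fold, with an adjusted p of 2.34e-09. Set 1427455_x_at was higher by 9.25 ± 0.21, 607-fold (adjusted p = 2.18e-08), and 1452463_x_at by 8.34 ± 0.24, 323-fold (adjusted p = 1.29e-07). By p they ranked 2, 6 and 10 among 22638 probe sets tested, of which 9.61% were called higher. The folds depend on naive signals far below the median. Against the median of the screen in place of the naive signal, the memory means stood 204 (1427455_x_at), 211 (1427660_x_at) and 90.1 times (1452463_x_at) higher. With a pseudocount of 16 in place of 1 the log2 changes were 8.08 (1427660_x_at), 7.77 (1427455_x_at) and 6.67 (1452463_x_at), all still called. Memory state, transfer and the Jk deletion came together in these groups and cannot be told apart, and the part of recipient B cells in the memory signal was not tested.

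A pair of dimmer kappa sets also passed the filter. Igk-V1 set 1460423_x_at read 6.76, 6.03, 6.19 and 6.75 on naive and 34.6, 35.3, 25.5 and 40.3 on memory arrays, the latter all above the median of the screen, HJ narrowly. It rose by 2.22 ± 0.12, 4.65-fold (adjusted p = 3.41e-06). With a pseudocount of 16 this was 1.15 (adjusted p = 1.69e-05), and after median centring or quantile normalization the set did not pass the filter. Igk-V8 set 1452557_a_at was the exception among kappa sets, since its naive arrays were above the median too: 53.9, 45.2, 42.7 and 59.6 against 64.3, 74.6, 89.6 and 67.9 in memory cells. The groups did not overlap and the rise was small, 0.55 ± 0.14 or 1.46-fold (adjusted p = 0.0184). That call ended without naive array B (adjusted p = 0.0516) or C (adjusted p = 0.0518) and in a fit of all 15 arrays (adjusted p = 0.132).

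So 5 of the 18 kappa sets passed the filter, and all 5 were called higher in memory cells and 0 lower. Among all 22638 sets tested, 9.61% were higher and 14.4% lower. Kappa sets that were dim on the naive arrays passed through their memory arrays alone, so this count is a description. Without the filter on dim signals 6 of 18 were called higher and 0 lower, against 3.98% and 5.63% of all 45037 probe sets. The sixth was Igk-V8 set 1427860_at, at 6.43, 6.25, 6.50 and 6.48 on naive and 28.3, 15.7, 22.0 and 10.0 on memory arrays (1.34 ± 0.26, adjusted p = 0.0140). Only its memory array EK lay above the median of the screen. On naive arrays, 17 of the 18 kappa sets were at or below the median on every array (3.04 to 15.1), and 12 of 18 were so on every memory array (4.40 to 15.7).

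Lambda probe sets were bright in both groups of the same screen, and none was called. Igl-V1 set 1424931_s_at read 43263, 45254, 43224 and 42784 on the naive and 41912, 46575, 43374 and 46185 on the memory arrays of the second screen. Set 1430523_s_at read 30389, 32156, 31337 and 30779 on naive and 28718, 31897, 28219 and 32264 on memory arrays. The groups overlapped in both, and the signals stood at percentiles 99.84 to 99.98 of their arrays. The change was 0.03 (95% interval -0.07 to 0.13, adjusted p = 0.700) for 1424931_s_at and -0.04 (-0.16 to 0.08, adjusted p = 0.594) for 1430523_s_at. Signals this bright may be near the upper end of the array's range, where the highest values of the second screen were 61246 to 67968, and whether saturation narrowed the difference was not tested. The third lambda set, 1427292_at, was not near that end. It read 627, 575, 607 and 879 on naive and 570, 494, 587 and 446 on memory arrays, overlapping, with a change of -0.35 (-0.67 to -0.02, unadjusted p = 0.0397, adjusted p = 0.118).

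In the first screen, where neither group is labelled as lacking Jk, the same kappa and lambda sets were bright in both groups. Set 1427455_x_at read 38932, 36817 and 33497 on naive A, B and C and 34902, 41367, 43460 and 33132 on memory D, E, F and G. Set 1427660_x_at read 23528, 21585 and 17830 on naive and 17787, 23256, 19552 and 22816 on memory arrays. Set 1452463_x_at read 27279, 25939 and 12975 on naive and 19805, 22465, 20589 and 9504 on memory arrays. The groups overlapped in each. None of the 12 light chain sets that passed the filter was called, against 0.491% of all 23813 tested (0.407% higher and 0.0840% lower). At an unadjusted p below 0.05 there were also 0 of the 12. Without the filter 0 of 21 were called, against 0.246% of all. At an unadjusted limma p below 0.05 there were 2 of the 21. The larger of these p-values, 0.0427 for 1427858_at, ranked 3034 among all 45037 probe sets.

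The changes of the first screen came with these intervals. For 1427455_x_at the change was 0.06 (95% interval -0.22 to 0.34), and for 1427660_x_at -0.01 (-0.33 to 0.31). Set 1427455_x_at, like the brightest lambda sets, read near the highest intensities of its arrays, so its interval may not bound a change. For 1452463_x_at it was -0.29 (-1.08 to 0.51), the widest of the 3, and naive C and memory G stood low in it. Without C and G the first 2 were at 0.07 (1427455_x_at) and -0.17 (1427660_x_at), neither called. With C and G as a block this set was called lower in memory cells (-0.38, adjusted p = 0.0374), and without both arrays it was not (-0.35, adjusted p = 0.0755). Memory means of the first screen stood 305 (1427455_x_at), 167 (1427660_x_at) and 145 times (1452463_x_at) above the median of that screen, which was summarized separately from the second, and the levels were not tested across screens.

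Among the other kappa sets of the first screen, Igk-V8 set 1452557_a_at read 1406, 1500 and 1085 on naive and 1516, 2010, 1694 and 985 on memory arrays, a change of 0.19 (-0.38 to 0.75). Igk-V1 set 1460423_x_at read 504, 501 and 531 on naive and 771, 593, 415 and 569 on memory arrays, a change of 0.16 (-0.34 to 0.67). Groups overlapped in both, and without C and G the changes were 0.25 and 0.19. Igk-V38 set 1426200_at, the sole one of its symbol, read 286, 265 and 289 on naive and 411, 511, 285 and 283 on memory arrays (0.37, -0.22 to 0.96), and 0.51 without C and G. In the second screen it stayed at 9.11 to 12.7 on all 8 arrays, below the median in memory as in naive cells.

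Igk-V8 set 1427860_at read 336, 472 and 566 on naive and 493, 724, 439 and 248 on memory arrays of the first screen, and its change was -0.01 (-0.82 to 0.80). The memory minus naive values of the Igk-V1 sets were 0.70 (-0.56 to 1.96) for 1452536_s_at and -0.29 (-1.20 to 0.63) for 1452537_at. The first of these rested on naive B, at 46.0 against 222 on A and 253 on C, while its memory arrays were at 199 to 260. Both Igk-V1 intervals include a change of 1 log2 unit. Without C and G the values were 0.44 (1427860_at), 1.16 (1452536_s_at) and 0.30 (1452537_at), none called.

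Lambda sets of the first screen were above the median on every array, and none was called. Set 1424931_s_at read 43082, 40169 and 49210 on naive and 35630, 42108, 50311 and 47650 on memory arrays, a change of -0.01 (-0.33 to 0.30). Set 1430523_s_at read 38166, 37477 and 47467 on naive and 33340, 40184, 45700 and 48087 on memory arrays (0.02, -0.32 to 0.36). Set 1427292_at read 2393, 2487 and 2632 on naive and 2399, 2628, 1712 and 2385 on memory arrays (-0.15, -0.53 to 0.23). In all 3 the arrays of the groups overlapped, and without C and G they were at 0.02 (1424931_s_at), 0.06 (1430523_s_at) and -0.14 (1427292_at).

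The test of the second-screen change minus the first-screen change asked whether the screens differ. Of the 8 light chain sets kept in both screens, 4 kappa sets had a larger change in the second and 0 a smaller one, where 0.369% of all 19781 sets were called larger and 0.415% smaller. These were 1427660_x_at (difference 10.17 ± 0.22 on the log2 scale, adjusted p = 8.12e-13), 1427455_x_at (9.18 ± 0.26, adjusted p = 2.42e-11), 1452463_x_at (8.62 ± 0.46, adjusted p = 9.77e-08) and 1460423_x_at (2.05 ± 0.29, adjusted p = 0.00351). With a pseudocount of 16 the last was no longer called (0.99, adjusted p = 0.0928). All 4 sets passed the filter of the second screen through their memory arrays alone, so their count is a description. Kappa set 1452557_a_at differed by 0.36 (-0.28 to 1.00, adjusted p = 0.744). The lambda sets differed by 0.04 (1424931_s_at), -0.07 (1430523_s_at) and -0.19 (1427292_at), none called. Without the filter 4 of 21 were called larger and 1 smaller, against 0.226% and 0.344% of all. Genotype, transfer, sorter, labeling kit and summarization all differ between the screens and cannot be told apart.

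**Figure D2:**
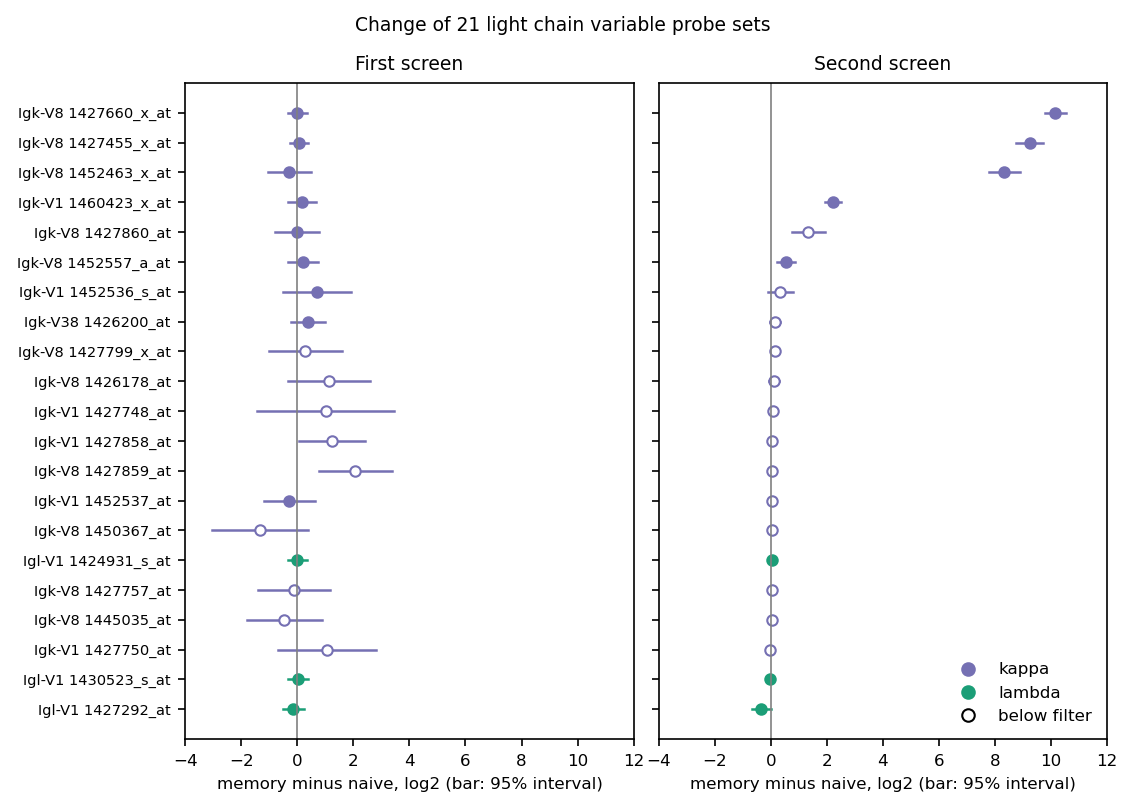
Memory minus naive change (log2, x axis) of each of the 21 light chain probe sets in the first and the second screen, with the 95% interval of the limma fit; filled points passed the filter, open points did not and come from the fit without it. The 3 bright kappa sets lie at 8.34 to 10.16 in the second screen and at -0.29 to 0.06 in the first, and the lambda sets lie at -0.35 to 0.03 over both screens.

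The order of the groups can be read from where a set stood among all probe sets of the same array. Set 1427455_x_at stood at percentiles 99.6 to 99.9 in both groups of the first screen, at 97.3 to 98.4 in memory cells of the second and at 7.01 to 32.9 in its naive cells. For 1427660_x_at these were 99.3 to 99.5, 97.7 to 98.5 and 0.473 to 7.63, and for 1452463_x_at 98.8 to 99.6, 93.2 to 96.3 and 2.74 to 26.4. The groups of the first screen are neighbours that did not differ beyond their spread in each. Memory cells of the second screen came next and its naive cells last, with no overlap of ranks. Lambda set 1424931_s_at stood at 99.88 to 99.98 in every group. The dimmer lambda set 1427292_at also stood lower in the second screen, at 82.2 to 89.1 over both its groups against 90.6 to 93.8 in the first, so a lower rank there was not particular to kappa.

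Of the 18 kappa sets, 9 never rose above the median of a screen on more than 1 array of any group (1426178_at, 1427748_at, 1427750_at, 1427757_at, 1427799_x_at, 1427858_at, 1427859_at, 1445035_at and 1450367_at). Fitted without the filter, their changes ran from -1.33 to 2.07 in the first screen (adjusted p 0.339 to 0.982) and from -0.02 to 0.14 in the second (adjusted p 0.128 to 0.746). In the first screen the groups did not overlap in 1 of these, 1427859_at, with naive arrays at 14.7, 16.4 and 20 and memory arrays at 44.9, 122, 81.4 and 67.3 (2.07, unadjusted p = 0.00520, adjusted p = 0.339). All 7 values were below the median of the screen, and 5.91% of all probe sets had memory arrays entirely above the naive ones. The clone of 1427859_at is also that of 1427860_at, whose arrays overlapped in the first screen. In the second screen 1427859_at stood at 5.85 to 6.46 on all 8 arrays, so without the filter its change was smaller there by 2.03 (adjusted p = 0.0370). The groups did not overlap in 1 other of the 9 in the second screen, 1427799_x_at (7.84 to 8.47 against 8.64 to 10.2), where 7.67% of all sets had memory above naive.

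Arrays within a group did not always move together. Naive C and memory G stand apart from their groups over the probe sets above the median on every array of the first screen. They read 2.05-fold (C) and 2.20-fold (G) lower than the other arrays of their group for 1452463_x_at. For 1427660_x_at C was 1.26-fold lower and G 1.14-fold higher, so the kappa sets did not share one direction. Lambda set 1430523_s_at was 1.26-fold higher on C and 1.22-fold higher on G. A heavy chain set whose common name in the files includes Vh186.2/Jh2, 1427851_x_at (Igh-VJ558), read 5030 on C and 4061 on G against 348 to 814 on the other 5 arrays. Its part in the light chain values was not tested.

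Memory array EK of the second screen was the lowest of its group in the 3 bright kappa sets, where the others stood 1.52-fold (1427455_x_at), 1.34-fold (1427660_x_at) and 1.69-fold higher (1452463_x_at). Heavy chain sets went both ways on EK. Set 1425763_x_at (Igh-VJ558) read 284 on EK and 827 to 1019 on the others, and 1429381_x_at 258 against 781 to 871. Set 1427851_x_at was level (3799 on EK and 3478 to 4242 on the others), and EK was the highest array for the IgG1 heavy chain set 1425247_a_at (Igh-4, now Ighg1), at 727 against 458 to 633. Dimmer kappa sets were mixed. EK was near the others for 1460423_x_at and the highest of its group for 1427860_at, 1.81-fold above the mean of the rest. The other arrays stood 1.19-fold above EK for 1452557_a_at and 1.34-fold above it for 1452536_s_at. Without EK, as without any other single array of the second screen, the 3 bright sets stayed called (adjusted p at most 2.51e-06).

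**Figure D3:**
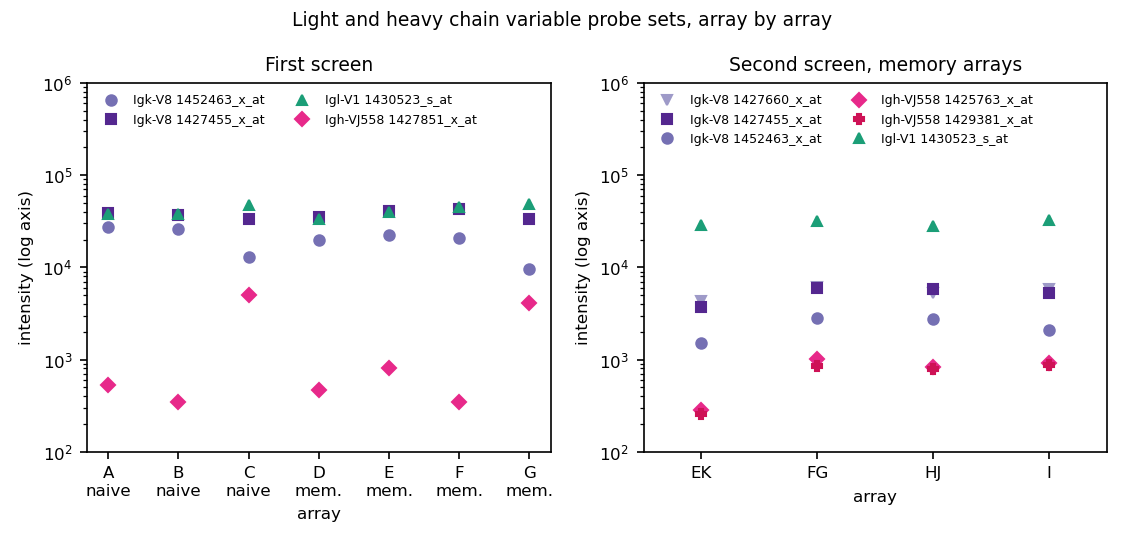
Intensity (log axis) by array of light chain sets and of heavy chain variable sets (Igh-VJ558), with all arrays of the first screen on the left and the memory arrays of the second on the right; each point is 1 array. Set 1452463_x_at is low on naive C and memory G, where 1427851_x_at is high. On the right, array EK is low in the kappa sets and the heavy chain sets 1425763_x_at and 1429381_x_at. In the lambda set shown the other arrays stood 1.07-fold above EK. For the lambda sets not shown, they stood 1.08-fold above EK in 1424931_s_at, and EK stood 1.13-fold above them in 1427292_at.

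Further light chain sets fell outside the symbol rule. Probe set 1451951_at has no symbol and the common name Igk-V8. In the second screen it read 18.5, 24.8, 11.1 and 17.7 on naive and 32.0, 51.0, 32.8 and 55.2 on memory arrays, a rise of 1.21 ± 0.25 (adjusted p = 0.00797), and its value in the first was -0.46 (adjusted p = 0.641). Set 1427837_at, with the common name Igk-V32, read 245, 314 and 136 on naive and 575, 618, 441 and 501 on memory arrays of the first screen. Its groups did not overlap there, as in 6.19% of sets tested, and it was not called (1.27, adjusted p = 0.165). On the arrays of the second screen it was at 5.84 to 10.6, below the median.

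The 3 heavy chain variable sets that were called were so in both screens. The only other such sets that passed a filter have Vh186.2/Jh2 in their name, and none of these was called. Across all probe sets, the first screen called 0.407% of those tested higher, and the second 9.61%. Set 1425763_x_at (Igh-VJ558) rose by 4.13 in the first (adjusted p = 0.00242) and by 3.04 in the second screen (adjusted p = 0.000872), and 1429381_x_at by 1.80 (adjusted p = 0.00353) and 2.66 (adjusted p = 0.000742). The third, 1421653_a_at, has no symbol and rose by 4.54 (adjusted p = 0.0136) and 2.84 (adjusted p = 0.000721). Leaving out arrays C and G put them at 4.15 (1425763_x_at), 1.90 (1429381_x_at) and 5.30 (1421653_a_at) in the first screen, all still called. Of the sets with Vh186.2/Jh2 in their name, 1427851_x_at was at -0.18 and 0.23 and 1427850_x_at at 0.06 and 0.00 in the first and second screen, while 1427852_x_at was kept in the first alone (-0.35), and no test called one of them.

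Genes whose pattern over the 15 arrays was most like a light chain set were sought by Pearson correlation of log2 values centred within each screen, among 16484 probe sets with a symbol that were kept in both. The 3 bright kappa sets were nearest to Igsf9, a member of the immunoglobulin superfamily (0.980 with 1427455_x_at, 0.989 with 1427660_x_at and 0.971 with 1452463_x_at). Cyp4f18, a cytochrome P450, was also among the 3 nearest (0.978, 0.980 and 0.968 in the same order), and Relt, a TNF receptor family member (0.966), Anp32a (0.967) and Ccnd2, cyclin D2 (0.970), completed these lists. For 1460423_x_at the nearest were Pcbp4 (0.969), Igsf9 (0.957) and Rab31 (0.954), and for 1452557_a_at 2610042L04Rik (0.929), Tspan32 (0.893) and Capn7 (0.879). Lambda sets had other neighbours. Among the 3 nearest were Rps16, a ribosomal protein gene (0.972), and Tpt1 (0.964) for 1424931_s_at, and the ribosomal protein gene Rpl9 (0.970) for 1430523_s_at. For 1427292_at they were Cirbp (0.883), Sin3b (0.856) and Nsmce1 (0.851). The points share their groups and screens, so these correlations are descriptions.

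Without naive C and memory G, 2.31% of 24483 sets in the first screen were called higher and 2.36% lower, and several gene lists had more calls. The partners of the light chain in the receptor gave a single call with all arrays. Of 5 genes of the receptor complex and its coreceptor, 0 were called in the first screen, and 1 was lower in the other, Cr2, the complement receptor CD21 (-0.54, adjusted p = 0.000365). Among all sets tested, 0.491% were called in the first screen with all arrays, and 14.4% were lower in the second. The signaling chain Cd79b was at -0.12 (first screen) and -0.07 (second), and neither was called. The list's median change was the same -0.12 and -0.07, against 0.02 and -0.03 over all sets tested. Without C and G 2 were called in the first screen, among them Cd81, a coreceptor subunit, which was higher (0.47, adjusted p = 0.0334).

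Vpreb3, which binds newly made chains during receptor assembly in precursor cells, was the member of its list that was called. It fell from 11.96 ± 0.09 to 9.48 ± 0.35 (log2, SD, n = 3 and 4) in the first screen (adjusted p = 0.00116) and from 9.71 ± 0.09 to 6.47 ± 0.27 (n = 4 and 4) in the second (adjusted p = 6.27e-07). It was at -2.28 in the first screen without C and G (adjusted p = 8.17e-06). Igll1, the surrogate light chain lambda 5, passed the filter in the second screen alone, at 5.07 ± 0.03 in naive and 5.14 ± 0.09 in memory cells, near the median (adjusted p = 0.459).

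Genes of V(D)J recombination, which joins variable and joining segments, gave 0 calls among 10 kept in the first screen, against 0.491% of all sets. In the second, 3 of 9 were lower and 0 higher, against 14.4% lower and 9.61% higher of all sets tested: the ligase Lig4 (-0.69, adjusted p = 0.0276), the kinase Prkdc (-0.33, adjusted p = 0.0101) and the chromatin protein Hmgb2 (-1.12, adjusted p = 0.0117). The recombinase genes Rag1 and Rag2 and the template-free polymerase Dntt were too dim to be kept there, in both groups. The list's median changes were -0.04 and -0.09.

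Transcription factors that act on the light chain loci gave 0 calls among 12 in the first screen, where 0.491% of all sets were called. In the second, 5 of 12 were lower and 0 higher, where 14.4% of all sets were lower: Foxo1 (-1.26, adjusted p = 2.18e-06), Mef2c (-0.57, adjusted p = 0.000176), Irf8 (-0.99, adjusted p = 0.000293), Tcf3, which encodes E2A (-0.36, adjusted p = 0.00286), and Ikzf1, which encodes Ikaros (-0.24, adjusted p = 0.00674). Without C and G, Foxo1 was lower (-0.76, adjusted p = 0.00345) and Spi1, which encodes PU.1, higher (0.43, adjusted p = 0.0474) in the first screen. Irf4, another factor that binds light chain enhancers, was at 0.16 and was not called. The list's median changes were -0.10 (first screen) and -0.03 (second).

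Of 10 genes of somatic hypermutation, the process that mutates variable regions in germinal centres, 0 were called in the first screen. In that screen 0.491% of all sets tested were called. In the second, 1 was higher and 3 were lower, against 9.61% higher and 14.4% lower of all sets tested. The endonuclease Apex1 was higher (0.35, adjusted p = 0.0276), and the polymerase Rev1 (-0.66, adjusted p = 9.09e-05), the exonuclease Exo1 (-1.17, adjusted p = 0.00656) and the mismatch protein Msh6 (-0.43, adjusted p = 0.0124) were lower. The median changes were -0.02 and -0.15.

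Genes of antibody-secreting cells bear on light chain signals because such cells hold large amounts of light chain RNA. Jchain, which joins antibody polymers, rose by 3.46 in the first (adjusted p = 0.00275) and by 3.36 in the second screen (adjusted p = 0.000456), and was the 1 called of 10 kept in the first. Of all sets tested in the first screen, 0.407% were higher. Without C and G Jchain was at 3.67 there (adjusted p = 0.000111), and Fkbp11, a prolyl isomerase of the secretory pathway, was called as well (1.14, adjusted p = 0.0152). In the second, Ssr4 of the secretory pathway was also higher (0.25, adjusted p = 0.00895), and Derl3 (-2.02, adjusted p = 1.38e-05), Pdia4 (-0.65, adjusted p = 0.00532) and Mzb1 (-0.23, adjusted p = 0.0367) were lower, among 11. That made 2 higher and 3 lower, against 9.61% higher and 14.4% lower of all sets tested. Prdm1, the regulator of plasma cells, was at 0.41 and 0.10 and was not called, and the list's medians were 0.05 and 0.00. Its summed intensity per array was 38794 to 47141 in naive and 50681 to 56859 in memory cells of the first screen, and 16556 to 20494 and 25542 to 28015 in the second. Jchain is part of these sums and rose from a mean log2 of 10.32 to 13.78 in the first screen. In the second it rose from 10.01 to 13.37, so the sums do not show a gain across the list. The part of such cells in the light chain changes was not tested.

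Markers of other cells were summed in the same way. With all arrays, 0.491% of all sets tested were called in the first screen. In the second screen 9.61% of all sets tested were higher and 14.4% lower. Of T cell markers 0 of 3 kept were called in the first screen (1123 to 1641 per naive and 1018 to 1056 per memory array), and 3 of 5 were lower in the second, where their summed intensity was 704 to 1082 per naive array and 303 to 410 per memory array. Those lower were Cd3d, Cd3g and Lck, while Cd4 and Cd8a were kept and not called. NK cell markers were not kept in the first screen and 2 of 2 were lower in the second (sum 169 to 243 against 77.5 to 100). Of myeloid markers 0 of 4 were called in the first (1617 to 2786 per naive and 3182 to 4256 per memory array) and 1 of 4, Cd68, was higher in the second (653 to 2586 and 1099 to 1447). Erythroid markers were not called in either with all arrays, with sums of 1802 to 5101 per naive and 6662 to 29343 per memory array in the first, and 2023 to 5331 and 1712 to 4720 in the second. Without C and G the first screen gave 1 lower T cell marker, Lck (adjusted p = 0.0129), and 2 higher myeloid markers, Lyz2 (1.88) and Cd68 (1.22), and 1 higher erythroid marker, Alas2 (3.71). No intensity on any array was 0. Cd93, the gene of AA4.1, was lower in memory cells of the second screen (4.26 ± 0.41 against 7.65 ± 0.42, log2, SD, n = 4 and 4; adjusted p = 1.98e-05), although naive cells are the ones labelled AA4.1-negative, a label that refers to the surface protein. The part of these cells in the light chain values was not tested.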

How the data were processed

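Biotin-labeled RNA of 15 mouse B cell samples was measured on oligonucleotide arrays. The deposited values are intensities on a linear scale, 1 per probe set and array. Those of the second screen were summarized by the authors with GCRMA, per the submitters' processing notes, with no version given, and the sources used here name no method for the first screen. Deposited tables also hold a p-value per probe set by the authors, which was not used in the comparisons, and pooled columns (sums of arrays in the first screen, means in the second, checked within 1 unit and 1%).

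Intensities were taken as log2(intensity + 1), since the deposited intensities are linear, and 64 controls were left out. No probe sets were averaged. A set was kept above the median of its screen (log2 6.98 and 4.73) on 3 or more arrays in the first screen and 4 or more in the second. GCRMA and an unstated method treat low signals differently, so folds of dim sets depend on the screen. Memory was compared with naive cells by limma 3.58.1 in R 4.3.3 (lmFit and eBayes with an intensity trend), with Benjamini-Hochberg adjustment over all sets tested and a threshold of 0.05. The difference of the screens was a contrast in 1 fit of 15 arrays. The test was tried on simulated data. Python 3.11.15, NumPy 2.4.6, pandas 2.3.3 and Matplotlib 3.10.9 served for reading and figures.

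Every light chain set was named, with 3 correlated genes each and, per gene list, up to 4 called or 2 uncalled genes, where a gene stood for its brightest set. The members, the lists, the rule and the alternatives, among them a block of naive C and memory G, were chosen with earlier results of these data known. The correlated genes of sets not kept in both screens are not given, and a few genes that the rule names are not reported here. The labels call the replicates biological without naming mice, so p-values measure the spread between these samples. Reference symbols gave Iglv1 for Igl-V1 and Igkv19-93 for Igk-V38, and the other symbols had no match. Genome positions and sequences of the sets were not used here. Alternatives were no filter, a stricter filter (75th percentile), median centring, quantile normalization, a pseudocount of 16, eBayes without trend or robust, a single fit of all arrays, and leaving out each array. For the heavy chain sets and gene lists, leaving out naive C and memory G was added after seeing the data.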

Additional observations from a re-analysis of the deposited data

Results flagged for a closer look

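Among kappa and lambda sets in groups of 4 arrays, 63 groups were checked for an array far from the rest and 3 had one, where chance gives about 1 in 20. Memory array G of the first screen read 9504 for Igk-V8 1452463_x_at where D, E and F read 19805 to 22465, and 107.3 for Igk-V1 1452537_at against 198.4 to 211.4. Memory array HJ of the second screen read 7.63 for Igk-V8 1426178_at against 5.69 to 5.90, all below the median of the screen.

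The change from naive to memory cells differed between the screens, by the limma contrast, for 4 kappa sets: 1427660_x_at by 10.17 (adjusted p = 8.12e-13), 1427455_x_at by 9.18 (adjusted p = 2.42e-11), 1452463_x_at by 8.62 (adjusted p = 9.77e-08) and 1460423_x_at by 2.05 (adjusted p = 0.00351). In each, all 4 memory arrays of the second screen were above all 4 naive arrays, and the arrays of the first screen overlapped. Such a separation was found in 11.4% of all sets tested in the second screen. All 4 sets passed its filter through their memory arrays alone, so the separation is a description. By the contrast, 0.369% of all sets were called larger. With a pseudocount of 16 the contrast no longer called 1460423_x_at (adjusted p = 0.0928).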

How the results depend on the processing

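In the second screen 5 light chain sets were called; a stricter filter, under which fewer sets are tested, left 3, and 4 to 5 were called when 1 array was left out. In the first screen 0 were called, 1 when C and G formed a block, and 0 to 0 when 1 array was left out. For the difference 4 were called, and 3 to 5 under the alternatives. Of 124 values of the second screen under alternatives, 121 kept their direction and side of the threshold, as did 174 of 201 in the first and 191 of 196 for the difference. A set that an alternative filtered out gives no value and is in neither count. In the second screen this left 13 of 16 values for 1460423_x_at and 15 of 16 for 1452557_a_at, both called in the main fit. Some values of the first screen and of the difference are missing in the same way. None of the values that turned sign had an adjusted p under 0.05, and the cause was not tested. In the first screen, median centring, which moved the median of all sets by -0.19, gave -0.13 (1427455_x_at), -0.17 (1430523_s_at), -0.0035 (1452557_a_at) and -0.0299 (1460423_x_at), and quantile normalization gave 0.054 for 1427660_x_at. With C and G as a block 1424931_s_at was at 0.0024, and without both it was at 0.0228, 1427860_at at 0.44 and 1452537_at at 0.30. In the difference, median centring gave 0.11 for 1430523_s_at. Leaving out 1 array turned the sign in the first screen for 1424931_s_at (-0.0841 to 0.0818), 1427455_x_at (-0.0018 to 0.13), 1427660_x_at (-0.12 to 0.0793), 1427860_at (-0.25 to 0.27), 1430523_s_at (-0.0497 to 0.13), 1452536_s_at (-0.077 to 1.14) and 1452537_at (-0.63 to 0.0615), and in the difference for 1424931_s_at (-0.054 to 0.11) and 1430523_s_at (-0.18 to 0.0056). No paired analysis was possible because the labels give the arrays letters and no replicate numbers shared between groups. Signals below the median limit what can be said of 9 kappa sets in both screens. They limit further kappa sets in the second, where only 5 of 18 passed the filter. The brightness of 2 lambda sets and of 1427455_x_at in the first screen limits what their level values can show.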
